A study of Homo sapiens with 33 samples.

Results

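The genes of cholesterol and fatty acid synthesis were examined as 1 group of 30 genes, chosen by symbol, out of the 58735 genes of the count table. All 30 were found. They comprised 7 genes of the mevalonate and isoprenoid steps, 3 of the squalene and lanosterol steps, 8 of the steps after lanosterol, 4 regulators, 1 sterol carrier and 7 genes of fatty acid synthesis, elongation and desaturation. Cells build cholesterol from acetyl-CoA through mevalonate, squalene and lanosterol, and build fatty acids from the same acetyl-CoA through malonyl-CoA. Most genes of both routes are under the control of the sterol regulatory element-binding proteins (SREBPs), transcription factors that are held in the endoplasmic reticulum by INSIG proteins when sterols are plentiful and released to the nucleus when sterols are scarce. In the ovary, cholesterol is the raw material of steroid hormones, and dividing cells of any kind need both products for new membranes.

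RNA-seq was performed on H9-DDdCas9VP192-FOXL2 clone 24, which is 1 clone of H9, a line of human embryonic stem cells, with a conditional dCas9 activator directed at the promoter of FOXL2, a forkhead transcription factor of the ovary. Doxycycline (DOX) switches the activator on and trimethoprim (TMP) keeps it from being degraded. All groups went through the same gonadal differentiation protocol, and the 33 libraries fell into 11 groups of 3: day 4, before any induction, then non-induced cells (CTRL, without DOX and TMP) and induced cells (IND, with DOX and TMP from day 4) on 5 days, every second day from day 6 to day 14. The 3 libraries of a group were technical replicates of 1 biological replicate, so every p-value below measures the spread between such libraries and not between differentiations. No group received DOX and TMP without FOXL2 activation, and therefore the agents and FOXL2 cannot be told apart.

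Library totals ranged from 23940837 to 51912815 counts, with a median of 41420455, and the lowest count of any of the 30 genes in any library was 121. In the IND libraries, the level of FOXL2 was between 148 and 577 counts per 1e6 counts (CPM), and no other library had more than 0.388 CPM. Of the stem cell genes that define the labelled cell type, POU5F1 averaged 71.9 ± 3.39 CPM at day 4 and at most 4.73 CPM in any later group, and NANOG was at most 0.317 CPM in every library, day 4 included. Summed with 2 further stem cell markers, DPPA4 and L1TD1, the level fell less. It was 185 to 236 CPM at day 4, 98.5 to 117 in CTRL at day 6 and 46.3 to 63.4 in CTRL at day 14. LHX9, a defining gene of the early gonad, was listed at 0 in all day 4 libraries and reached 7.19 CPM in CTRL at day 14. It was 1 of 5 early gonadal markers, with GATA4, EMX2, UPK3B and KRT19. In the tests described below, 3 of these 5 were higher and 1 lower in CTRL at day 14 than at day 4. Their summed level was lower, at 1057 to 1399 CPM at day 4 and 716 to 935 in CTRL at day 14. IND day 10 replicate 2 stood apart, with the lowest total of all and 0.691% of its counts on mitochondrial genes, against 2.50% and 2.62% in the other IND libraries of that day. Day 4 replicate 3 had 1.14% mitochondrial counts against 3.33% and 4.28% in its group. For the calls per day, medians and sums over all 30 genes that include either library, the values without it are given as well, together with the genes whose calls then changed. Counts and medians within a role, and values of other gene lists, are given with all libraries. IND day 12 replicate 1, which also stood apart from its group, is taken up below.

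Compared per length of transcript, as FPKM (fragments scaled to gene length and library total), 3 of the 7 fatty acid genes were among the 4 highest of the group at day 4, and the other 4 (FADS1, ACACA, FADS2 and ELOVL6) held ranks 11 to 14. At that day, FASN, the fatty acid synthase, had 250.4 ± 33.3 FPKM (SD, n = 3) and SCD, the desaturase that makes oleic acid, had 241 ± 28.7, which did not differ beyond their spread. SREBF2, which encodes the SREBP of cholesterol synthesis, followed at 102 ± 5.83 FPKM and ACLY, which supplies cytosolic acetyl-CoA, at 75.4 ± 4.21. The lowest were CYP51A1, the lanosterol demethylase, at 4.97 ± 2.47, HSD17B7, a sterol ketone reductase, at 4.64 ± 0.567, and MVK, the mevalonate kinase, at 4.22 ± 1.18 FPKM, again without a difference beyond their spread. In CTRL at day 14, SCD led with 114 ± 12.2 FPKM, and SREBF2 (62.3 ± 7.16), FASN (61.8 ± 8.31) and ACLY (57.3 ± 1.49) lay within each other's spread. CYP51A1 was the lowest there, at 2.52 ± 0.917 FPKM. Its level is uncertain, because 83.2% of its exon bases are also exons of other annotated genes and the libraries were not directional, and the same holds for ACAT2, with 52.3% of its exon bases shared, among others with TCP1 on the opposite strand. FDPS, at 18.6%, was the next, and 15 of the 30 genes shared no exon base.

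Promoter sequence is shown for genes that were lower in IND on 2 days, the most that any of the 30 reached, and for SREBF2, whose window held the sterol regulatory element. RefSeq windows of 250 bases before to 50 after the start site (GRCh38.p14) were at hand for 26 of the 30 genes, and not for ACAT2, FDFT1, SQLE and FASN. On either strand, the SREBP motif TCACNCCAC was present in 1.13% of all 35116 windows and in 1 of the 26. Its match in SREBF2 began 133 bases before the start site, in capitals here, on the plus strand at chr22:41832942-41833010.
SREBF2: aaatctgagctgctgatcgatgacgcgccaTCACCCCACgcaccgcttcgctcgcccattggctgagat
The CCAAT box, bound by NF-Y, a frequent partner of SREBPs, was found in 17 of the 26 windows and in 34.6% of all windows. The GC box GGGCGG, bound by Sp1, was in 24 of the 26 and in 44.95% of all. The E-box CACGTG was in 3 (LSS, SC5D and INSIG1) against 7.26% of all, and the forkhead motif GTAAACA in 1 (ELOVL6) against 3.42%. The last 3 letters of TCACNCCAC are also the first 3 of CACGTG, and the other motifs were searched apart. A match is a stretch of letters and not a shown binding site, and base composition was not matched. Of the 6 genes that were lower on 2 days in IND, 4 had CCAAT boxes before the start site, in capitals as CCAAT or, for the other strand, ATTGG in the stretches that follow, each written 5′ to 3′ in the direction of the gene: HMGCS1 (minus strand, chr5:43313493-43313582), SCD (plus strand, chr10:100346989-100347066), MVD (minus strand, chr16:88663157-88663265) and ACLY (minus strand, chr17:41919026-41919102). These were picked after their expression was known.
HMGCS1: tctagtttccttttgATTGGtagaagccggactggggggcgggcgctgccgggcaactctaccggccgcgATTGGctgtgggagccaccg
SCD: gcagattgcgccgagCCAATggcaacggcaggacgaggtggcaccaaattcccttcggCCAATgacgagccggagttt
MVD: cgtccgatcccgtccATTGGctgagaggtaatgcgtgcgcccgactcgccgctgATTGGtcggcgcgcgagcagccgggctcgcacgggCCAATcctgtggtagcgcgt
ACLY: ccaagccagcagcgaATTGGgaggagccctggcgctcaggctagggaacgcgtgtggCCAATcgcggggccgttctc
The boxes began between 229 and 23 bases before the start site, with 2 boxes each in HMGCS1, SCD and ACLY and 3 in MVD. The SREBF1 window held no CCAAT box.

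The first question was how the genes behave during differentiation without induction. Each CTRL group was compared with day 4, a comparison called DIFF, and the 5 comparisons share the 3 day 4 libraries. Of the 30 genes, 4 were lower at day 6 and 19 at day 8, and 18 were lower on every day from day 8, as were 16% of all genes tested on those 4 days. Summed over the 30 genes, the level was 8012 to 8549 CPM at day 4, 6712 to 7413 in CTRL at day 6, 4745 to 4890.1 at day 8 and 4050.5 to 4601 at day 14, with no overlap between day 4 and any of these. Without day 4 replicate 3, the day 4 range was 8012 to 8353 CPM. In bulk samples, fewer cells of a type and less RNA per cell cannot be told apart.

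**Figure D1:**
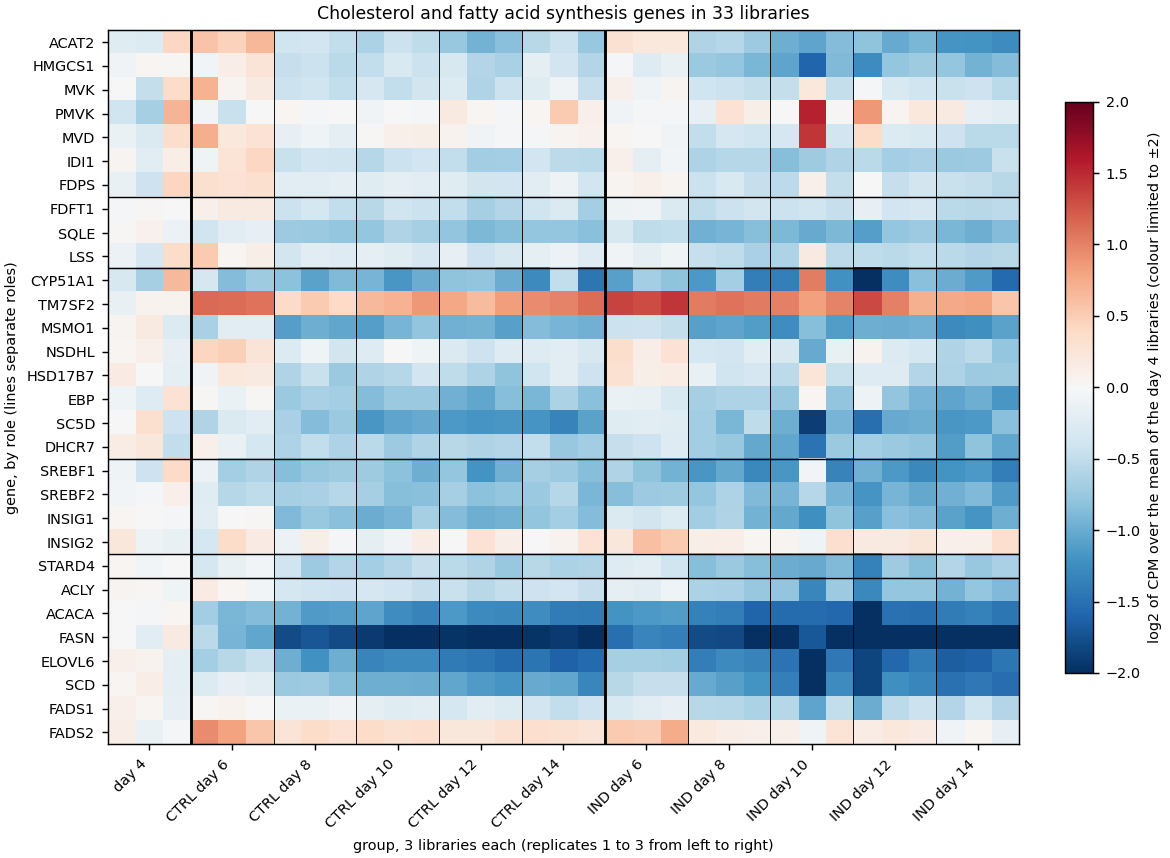
Level of each of the 30 genes (rows, by role) in each of the 33 libraries (columns), as log2 of CPM over the mean of the day 4 libraries. FASN turns the deepest blue after day 6, TM7SF2 stays red, and IND day 10 replicate 2 departs from its neighbours for PMVK, MVD and CYP51A1.

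At day 6, 4 genes were lower and 3 higher than at day 4 at an adjusted p under 0.05 (the quasi-likelihood test of edgeR, adjusted by Benjamini-Hochberg, as for every adjusted p here), where 10.6% of all genes tested were lower and 11% higher. With scaling to total counts alone the split was 3 lower and 5 higher. From day 8 on, 19, 20, 22 and 20 of the 30 genes were lower at days 8, 10, 12 and 14, against 18.9%, 22%, 23.8% and 22.9% of all genes. Only 2, 2, 1 and 2 were higher, against 18.1%, 23.1%, 24.4% and 24.6% of all genes. These shares, as all others here, cover every gene tested and were not matched to the 30 genes in level. The median log2 fold change of the 30 genes was -0.00, -0.52, -0.50, -0.63 and -0.52 on the 5 days, while that of all genes tested was between -0.01 and 0.00. A total of 6 genes passed the test on no day (MVK, PMVK, MVD, FDPS, LSS and INSIG2). Scaled to total counts alone, the median of all genes moved up by between 0.13 and 0.20, the median of the 30 genes at days 8 to 14 lay between -0.44 and -0.32, and 15, 16, 20 and 14 genes passed at those days. Without day 4 replicate 1, 4 genes passed at day 6.

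Without day 4 replicate 3, 8, 20, 21, 21 and 21 genes were lower on the 5 days, against 14.8%, 21.7%, 24.4%, 24.9% and 24.2% of all genes, and 7, 3, 4, 4 and 4 were higher, against 15.2%, 22.8%, 27.7%, 28% and 26.8%. Of the genes lower with all libraries, 4, 19, 20, 21 and 19 were lower without it too, and 18 genes were lower on every day from day 8. The median of the 30 genes was then 0.00, -0.44, -0.47, -0.56 and -0.47, beside 0.01 to 0.04 for all genes. PMVK, the phosphomevalonate kinase, was then higher on days 8 to 14 (0.52 to 0.77), and MVD, the next enzyme of the route, at days 6, 10, 12 and 14 (0.23 to 0.62). MVK, FDPS and LSS were then higher at day 6 (0.55, 0.57 and 0.45), and SQLE, MSMO1, SC5D and SCD lower (-0.32, -0.49, -0.54 and -0.33). NSDHL was then lower at days 8 and 14 (-0.30 and -0.32), FADS1 at day 10 (-0.26) and HSD17B7 at day 14 (-0.42). FADS2 was then higher at day 12 (0.27) as well. Of all calls with the full set of libraries, 4 of 7, 14 of 21, 15 of 22, 19 of 23 and 13 of 22 held on the 5 days whichever single library was left out. Calls that held in fewer than 3 of 6 such fits were those of ACAT2 at day 6, IDI1 at day 8, CYP51A1 at days 8, 12 and 14, DHCR7 at days 8, 10 and 12, FADS2 at days 8 and 14, NSDHL and FADS1 at day 12 and HMGCS1 at day 14.

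The 7 fatty acid genes had median log2 fold changes of -0.23, -0.77, -0.96, -1.11 and -1.10 at days 6 to 14. FASN (ENSG00000169710, minus strand, chr17:82078333-82098332, as all gene positions here from GENCODE 29 on GRCh38) had 2369, 2046 and 2690.3 CPM in the day 4 libraries, 1622, 1241 and 1149 in CTRL at day 6 and 687, 725 and 686 at day 8. It then stayed between 484 and 631 CPM at day 14, far under every day 4 library. Its log2 fold change was -0.83 ± 0.16 (SE, adjusted p = 0.00375) at day 6 and -2.04 ± 0.16 (SE, adjusted p = 1.18e-05) at day 14, the latter a 4.11-fold lower level. ACACA encodes the acetyl-CoA carboxylase, which makes the malonyl-CoA that FASN uses. It went from 347, 337 and 356 CPM at day 4 to 215, 185 and 190.2 in CTRL at day 6 and 146, 132 and 129.9 at day 14, a log2 fold change of -1.35 ± 0.10 (SE, adjusted p = 8.95e-06) on the last day. ELOVL6, which lengthens palmitate, had 193, 188 and 157 CPM at day 4 and 65.3, 58.7 and 60.9 in CTRL at day 14, with a log2 fold change that went from -0.56 at day 6 to -1.54 ± 0.12 (SE, adjusted p = 9.57e-06) at day 14. None of these 3 genes had a CTRL library from day 6 on within the range of the day 4 libraries. SCD was later: 1342, 1438 and 1141 CPM at day 4 and 1085, 1165 and 1114 at day 6 overlapped (log2 fold change -0.23 (adjusted p = 0.245)), and it passed the test from day 8, with -0.77 ± 0.11 (SE, adjusted p = 0.000894), to day 14, with -1.10 ± 0.14 (SE, adjusted p = 0.000216). ACLY, on days 8 to 14, fell by 0.38 to 0.49 on the log2 scale. FADS1, the delta-5 desaturase, was lower at days 12 and 14 (-0.29 and -0.43), and its day 12 call held in 1 of 6 fits with a library left out, with adjusted p up to 0.428. That fit, without day 4 replicate 3, gave -0.34 (adjusted p = 0.00209).

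FADS2, the delta-6 desaturase and the neighbour of FADS1, went the other way. Its day 4 libraries had 317, 264 and 286 CPM and its CTRL day 6 libraries 556, 506 and 425, with no overlap and a log2 fold change of 0.77 ± 0.14 (SE, adjusted p = 0.00217). It remained higher at days 8, 10 and 14 (0.30, 0.35 and 0.31), and at day 12 its log2 fold change was 0.26 (adjusted p = 0.0533). The calls at days 8, 10 and 14 were each lost when 1 of several single libraries was left out, with adjusted p up to 0.132 over all alternatives at days 8 and 14 and up to 0.0587 at day 10. The FADS1 and FADS2 exons overlap in part.

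In cholesterol synthesis, the 8 genes after lanosterol had median log2 fold changes between -0.75 and -0.64 on days 8 to 14, and the 7 mevalonate and isoprenoid genes between -0.43 and -0.24. Of the 8 genes after lanosterol, 6, 6, 7 and 5 were lower on days 8, 10, 12 and 14, and 1 was higher on each day. SC5D, the lathosterol desaturase, had the largest change of these at day 14, with a log2 fold change of -1.18 ± 0.18 (SE, adjusted p = 0.00053). MSMO1, which removes methyl groups of lanosterol, was at -1.04 ± 0.12 (SE, adjusted p = 0.000323) at day 8 already. CYP51A1 was between -1.01 and -0.86 on these days, but its day 4 libraries were spread widely (14.4, 11.4 and 28.3 CPM) and its calls were lost without 1 of several single libraries. Without day 4 replicate 3, CYP51A1 stood at -0.36 (adjusted p = 0.0786) at day 12 and -0.52 (adjusted p = 0.133) at day 14. EBP, the sterol isomerase, and DHCR7, which catalyses a last step to cholesterol, were lower on all 4 days, with log2 fold changes between -0.95 and -0.69 for EBP and between -0.64 and -0.57 for DHCR7. The EBP calls held in every fit with a library left out, while those of DHCR7 held in 1 of 6 fits at days 8, 10 and 12 and in 3 of 6 at day 14, with adjusted p up to 0.12. The fit that kept them at days 8, 10 and 12 was that without day 4 replicate 3. DHCR7 stood there between -0.83 and -0.75 on days 8 to 14, with adjusted p of at most 8.14e-05. The 1 gene that was higher was TM7SF2, a sterol reductase of the step after CYP51A1 (ENSG00000149809, plus strand, chr11:65111845-65116384). It went from 24.5, 28.3 and 28.5 CPM at day 4 to 59.4, 58.9 and 57.7 at day 6 of CTRL, a log2 fold change of 1.11 ± 0.12 (SE, adjusted p = 0.000112), was at 35.4, 39.0 and 35.7 at day 8 and stood at 52.0, 53.7 and 59.0 at day 14 (1.02 ± 0.12 (SE, adjusted p = 9.56e-05)). All CTRL libraries from day 6 on exceeded all day 4 libraries for TM7SF2.

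Of the squalene and lanosterol steps, SQLE, the squalene epoxidase, and FDFT1, the squalene synthase, were lower on days 8 to 14, with log2 fold changes of -0.85 to -0.66 and -0.58 to -0.42. LSS, the lanosterol synthase, stayed between -0.30 and 0.24 with no call. Among the 7 mevalonate and isoprenoid genes, 2 were lower at day 8 and 3 on each later day. These were HMGCS1, the cytosolic HMG-CoA synthase (-0.48 ± 0.08 (SE, adjusted p = 0.00215) at day 8), IDI1, the isopentenyl diphosphate isomerase (-0.62 ± 0.12 (SE, adjusted p = 0.00256) at day 12), and ACAT2, the cytosolic thiolase of the first step. ACAT2 was higher at day 6 (0.57 ± 0.17 (SE, adjusted p = 0.0377)) and lower from day 10 (-0.84 ± 0.18 (SE, adjusted p = 0.00471) at day 12), within the limit on shared exons given above. Its day 6 call held in 1 of 6 fits with a library left out, with adjusted p up to 0.171. That fit, without day 4 replicate 3, gave 0.81 ± 0.12 (SE, adjusted p = 4.68e-05).

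Of the regulators, SREBF2 had 747, 756 and 832 CPM at day 4, 658, 524 and 548 in CTRL at day 6 and 492, 433 and 438 at day 10. It was lower on all 5 days, from -0.44 ± 0.13 (SE, adjusted p = 0.0308) to -0.76 ± 0.10 (SE, adjusted p = 0.000303), and no CTRL library reached the day 4 range. The day 6 call of SREBF2 held in 3 of 6 fits with a library left out, with adjusted p up to 0.162. SREBF1, which encodes the SREBP of fatty acid synthesis, was lower from day 8 (-0.77) to day 14 (-0.74), although its day 4 libraries varied (97.3, 77.3 and 134 CPM). Without day 4 replicate 3, SREBF1 was at -0.52 at day 8 and -0.49 at day 14, still lower. INSIG1, itself a target of SREBPs, had 89.4, 86.2 and 85.0 CPM at day 4 and 47.3, 51.5 and 48.6 in CTRL at day 8 (-0.82 ± 0.09 (SE, adjusted p = 0.000155)). INSIG2, its paralogue, lay between -0.01 and 0.15 and passed on no day. STARD4, a soluble sterol carrier, was between -0.63 and -0.56 on days 8 to 14, lower on each.

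**Figure D2:**
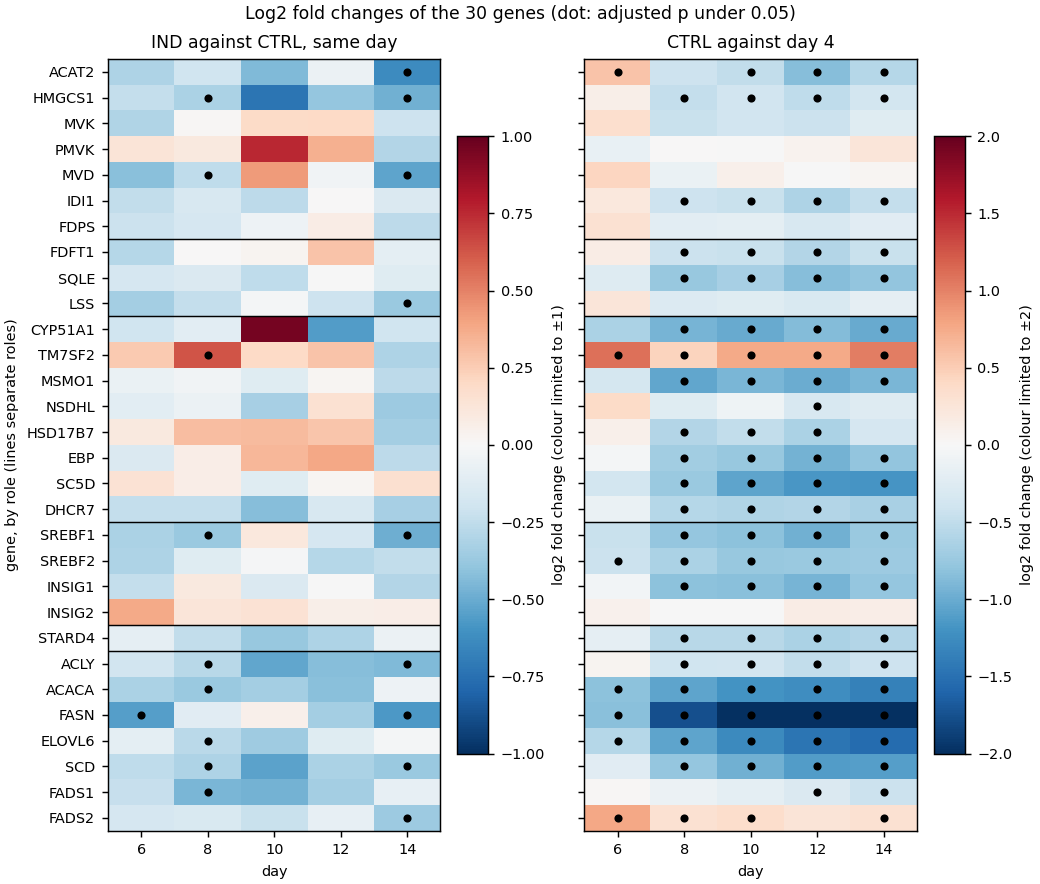
Log2 fold change of each gene (rows, by role) on each day, IND against CTRL on the left and CTRL against day 4 on the right, with a dot where the adjusted p was under 0.05. Dots fill most of the right panel from day 8, and in the left panel they stand at days 8 and 14, with 1 (FASN) at day 6.

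The second question was what FOXL2 activation adds on the same day, by comparing IND with CTRL. More of the 30 genes lay below 0 than above it on each day, mostly by small amounts, and 17 passed the test on no day. Their median log2 fold change was -0.22, -0.15, -0.12, -0.05 and -0.28 on the 5 days, while that of all genes tested was between -0.01 and 0.02, and 25, 21, 19, 18 and 28 of the 30 values were below 0. Summed over the 30 genes, the CTRL and IND libraries had 6712 to 7413 and 5580.0 to 5787 CPM at day 6, 4745 to 4890.1 and 3977 to 4337 at day 8, and 4050.5 to 4601 and 3402 to 3675 at day 14. The ranges did not overlap on these days. At day 10 (4466 to 4574 and 3801 to 4123) and at day 12 (4140.0 to 4481 and 3466 to 4009) they did not overlap either. Without IND day 10 replicate 2, the IND range at day 10 was 3801 to 3922 CPM. FASN and SCD make up a large share of these sums. No test was run on medians or sums.

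By gene, 1 was lower at day 6 (FASN), where 2.37% of all genes tested were lower and 1.29% higher. At day 8, 8 were lower and 1 higher, against 6.67% and 7.49% of all genes. At day 14, 9 were lower and none higher, against 5.22% and 3.21%. No gene passed at day 10, where 1.18% of all genes were lower and 0.856% higher, nor at day 12, with 3.04% and 2.38%. By edgeR at an unadjusted p under 0.05, 8 of the 30 were lower and 0 higher at day 10, against 6.29% and 8.64% of all genes, and 4 were lower and 1 higher at day 12, against 9.69% and 10.1%. At the adjusted threshold, DESeq2 called 3 at day 10 and 0 at day 12, and limma on log2(FPKM + 1) called 0 on both days. In all, 6 genes passed on 2 days, 7 on 1 day and 17 on none, where 4.06%, 13.3% and 79.1% of all genes tested on the 5 days did so and 3.49% passed on more than 2. A total of 5 genes were lower at both day 8 and day 14: HMGCS1, MVD, SREBF1, ACLY and SCD. Of all genes tested on both days, 1.63% were lower on both. At day 8 the count was 4 without CTRL replicate 1 and 5 without CTRL replicate 3 or IND replicate 2, and at day 14 it was 5 without CTRL replicate 1 or IND replicate 3. A fit over all 33 libraries called 3 at day 8 and 5 at day 14.

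**Figure D3:**
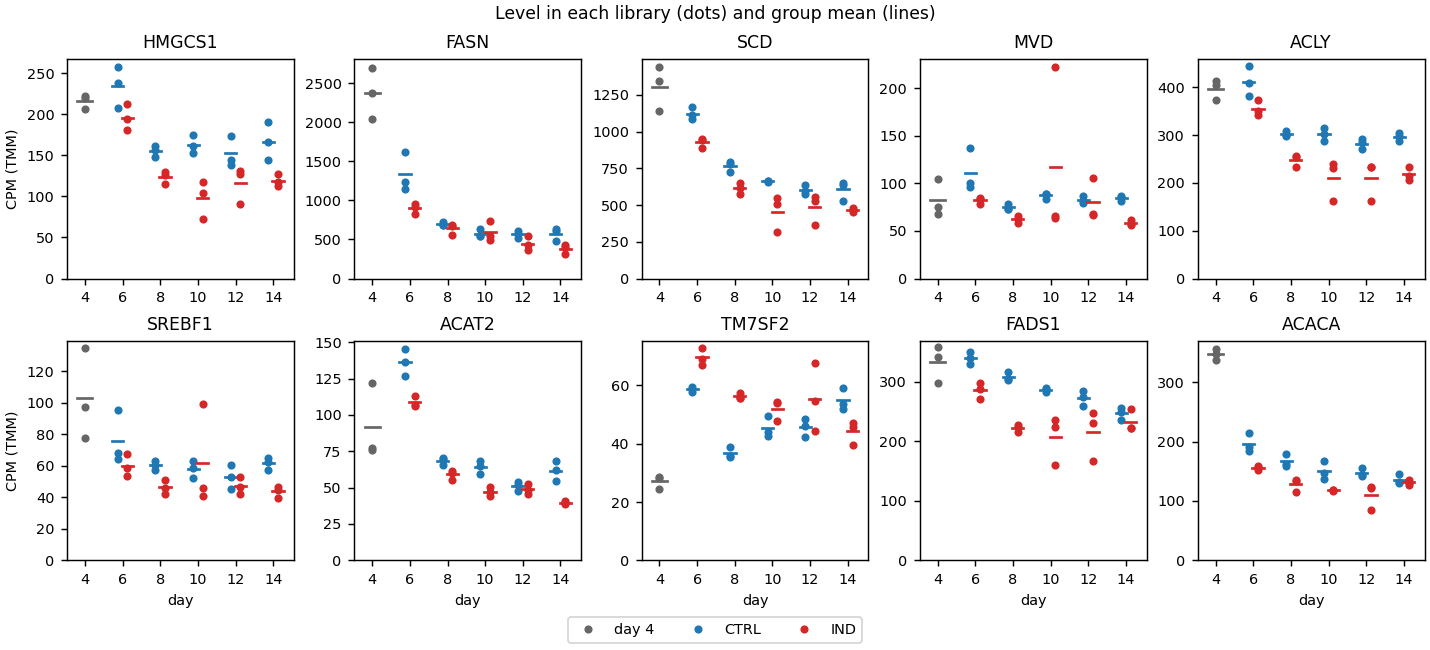
CPM (TMM-normalised) of the 10 genes called on the most days and with the largest changes, in every library (dots) with group means (lines), day 4 in grey, CTRL in blue and IND in red. All IND dots lie below all CTRL dots on 5 of 5 days for SCD and ACLY, and 1 IND library at day 10 lies far above the rest for MVD and SREBF1.

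Among the fatty acid genes, 5 of 7 were lower at day 8 and 4 of 7 at day 14. SCD (ENSG00000099194, plus strand, chr10:100347124-100364834) had 781, 790.3 and 727 CPM in CTRL and 648, 619 and 574 in IND at day 8, and 651, 639 and 531 against 467, 484 and 455 at day 14. Every IND library was below every CTRL library, here and at days 6, 10 and 12 (1085, 1165 and 1114 against 888, 945 and 948, 667, 662 and 659.9 against 506, 315 and 547, and 639, 598 and 574 against 368, 557 and 527). The log2 fold change was -0.31 ± 0.07 (SE, adjusted p = 0.0182) at day 8 and -0.37 ± 0.10 (SE, adjusted p = 0.0315) at day 14. Leaving out single libraries gave adjusted p above 0.05 in 3 of 6 fits at day 8 and 5 of 6 at day 14. ACLY had 309.6, 301 and 298 CPM in CTRL and 257, 254 and 234 in IND at day 8 and 297, 305 and 287 against 206, 232 and 215 at day 14, again with no overlap on any of the 5 days (ENSG00000131473, minus strand, chr17:41866908-41930542). Its log2 fold change was -0.27 ± 0.07 (SE, adjusted p = 0.02) and -0.44 ± 0.08 (SE, adjusted p = 0.00447), and at day 14 the call held in every fit, with adjusted p up to 0.0425. The day 8 call of ACLY held in 3 of 6 fits with a library left out and in 7 of 8 other settings, with adjusted p up to 0.181.

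FASN was lower at day 6, with 1622, 1241 and 1149 CPM in CTRL and 831, 954 and 919 in IND, and at day 14, with 609, 631 and 484 and 399.8, 432 and 320.5. The log2 fold changes were -0.55 ± 0.12 (SE, adjusted p = 0.0163) and -0.57 ± 0.13 (SE, adjusted p = 0.0147), and the groups overlapped at days 8, 10 and 12. The day 6 call was lost without CTRL replicate 1, the highest library, or IND replicate 2, and the day 14 call without CTRL replicate 1 or 2 or IND replicate 3. FADS1 had 304, 304 and 316 CPM in CTRL and 227, 224 and 216 in IND at day 8, a log2 fold change of -0.46 ± 0.06 (SE, adjusted p = 0.000817) that held in every fit. At day 14 its libraries overlapped (256, 236 and 249.6 and 223, 254 and 223). ACACA was at 179.6, 159 and 161 CPM in CTRL and 136, 133 and 115 in IND at day 8 (-0.37 ± 0.08 (SE, adjusted p = 0.0145)) and also overlapped at day 14. The day 8 call of ACACA was lost without CTRL replicate 1, with adjusted p up to 0.065. ELOVL6 passed at day 8 (-0.27 ± 0.08 (SE, adjusted p = 0.0473)) and FADS2 at day 14 (-0.36 ± 0.09 (SE, adjusted p = 0.0183)), each losing the call without 1 of several libraries. The ELOVL6 call held in 2 of 6 fits with a library left out and in 3 of 8 other settings. That of FADS2 held in 3 of 6 and 8 of 8.

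Among the mevalonate genes, HMGCS1, which makes HMG-CoA (ENSG00000112972, minus strand, chr5:43289395-43313512), had 156, 161 and 148 CPM in CTRL and 129, 126 and 115 in IND at day 8. At day 14 it had 190.3, 166 and 144 and 127, 112 and 118. The groups did not overlap on either day. The log2 fold change was -0.32 ± 0.07 (SE, adjusted p = 0.0134) at day 8, where the call held without any single library, and -0.48 ± 0.10 (SE, adjusted p = 0.00947) at day 14, where it was lost without CTRL replicate 1, IND replicate 2 or IND replicate 3. The day 8 call of HMGCS1 held in 7 of 8 other settings, with adjusted p up to 0.196. MVD, which makes isopentenyl diphosphate, had 81.2, 85.4 and 87.1 CPM in CTRL and 61.8, 56.9 and 56.7 in IND at day 14 (-0.53 ± 0.08 (SE, adjusted p = 0.00115)). This day 14 call held without any single library and in 7 of 8 other settings, with adjusted p up to 0.472. The change of MVD at day 8 was smaller (-0.25 ± 0.07 (SE, adjusted p = 0.0367)) and held in 1 of 6 fits with a library left out. ACAT2 had 62.4, 68.0 and 54.3 CPM and 40.6, 39.9 and 38.4 CPM at day 14, a log2 fold change of -0.63 ± 0.10 (SE, adjusted p = 0.000949), the largest downward change of the 30 genes on that day. MVK, PMVK, IDI1 and FDPS passed on no day, with log2 fold changes at day 14 of -0.21, -0.29, -0.14 and -0.26.

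In the later steps of cholesterol synthesis, 1 gene was lower (LSS at day 14) and 1 higher (TM7SF2 at day 8). LSS had 153, 160.1 and 144 CPM in CTRL and 119, 115 and 117 in IND at day 14 (-0.37 ± 0.08 (SE, adjusted p = 0.00863)) and was below 0 on all 5 days. Its call held without any single library and in 7 of 8 other settings, with adjusted p up to 0.252. SQLE and FDFT1 passed on no day. After lanosterol, no gene was lower on any day, and the 8 log2 fold changes at day 14 ran from -0.37 for NSDHL to 0.16 for SC5D. Of the regulators, SREBF1 had 57.1, 60.8 and 62.9 CPM in CTRL and 45.7, 50.8 and 42.3 in IND at day 8, and 65.1, 62.2 and 57.4 against 44.9, 46.6 and 39.5 at day 14, with no overlap on either day. Its log2 fold change was -0.37 ± 0.09 (SE, adjusted p = 0.0161) and -0.49 ± 0.09 (SE, adjusted p = 0.00473). The day 8 call was lost without CTRL replicate 3, with adjusted p up to 0.411 over all alternatives. The day 14 call held without any single library and in 7 of 8 other settings, with adjusted p up to 0.303. SREBF2 was below 0 on all 5 days, from -0.31 to -0.01, and passed on none. INSIG2 was the 1 gene above 0 on all 5 days (0.06 to 0.38), and INSIG1 lay between -0.29 and 0.10, neither with a call. STARD4 was between -0.38 and -0.06.

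Day 10 turned on a single library. In IND day 10 replicate 2, MVD was at 222 CPM against 65.2 and 63.2 in replicates 1 and 3, SREBF1 at 99.2 against 45.9 and 40.9, and CYP51A1 at 36.7 against 6.97 and 7.74. SCD was low there, at 315 CPM against 506 and 547, as was ACLY, at 161 against 231 and 239. Without that library, 13 genes were lower and 1 higher, while 9.51% of all genes tested were lower and 8.74% higher. The median of the 30 genes was then -0.24 with 24 below 0, beside 0.01 for all genes. HMGCS1 stood at -0.56 ± 0.08 (SE, adjusted p = 0.000181), MVD at -0.45 ± 0.07 (SE, adjusted p = 0.000324) and SREBF1 at -0.42 ± 0.09 (SE, adjusted p = 0.00536). With all 3 IND libraries, these were -0.73, 0.43 and 0.11, so the direction of MVD and SREBF1 turned with the 1 library. CYP51A1 (0.95 with it and -0.27 without), EBP (0.34 and -0.00), MVK (0.19 and -0.08), FASN (0.05 and -0.14) and SC5D (-0.12 and 0.11) also changed sign, with no call in either fit. ACAT2 (-0.40), STARD4 (-0.37), ACLY (-0.36), ACACA (-0.36), SCD (-0.34), FADS1 (-0.32), LSS (-0.32), FDPS (-0.29), IDI1 (-0.27) and SQLE (-0.22) were also lower, and TM7SF2 was higher (0.25). Of these 13 lower genes, 7 were also lower at day 8 and 7 at day 14. The same overlap over all genes is not given, so whether these counts stand out is not known. At day 12, 3 genes passed without IND replicate 1. The share of all genes that passed in that fit is not given, so nothing is read from the count. IND day 12 replicate 1 stood apart from replicates 2 and 3 too. Chi-square per gene, a measure of disagreement between libraries, was 123 and 95.1 with them and 17.7 between them. Medians and sums without it are not given, so those of day 12 all include it.

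Whether the difference between IND and CTRL depended on the day was tested with the 4 interaction terms of day and induction over the 30 libraries after day 4. Of the 30 genes, 1 passed, TM7SF2 (adjusted p = 0.0128), against 2.38% of all genes. It had 35.4, 39.0 and 35.7 CPM in CTRL and 55.7, 57.5 and 55.8 in IND at day 8 (0.63 ± 0.07 (SE, adjusted p = 0.00028)), and 52.0, 53.7 and 59.0 in CTRL and 45.9, 47.1 and 39.6 in IND at day 14 (-0.31 ± 0.10 (SE, adjusted p = 0.0685)). All IND libraries were above all CTRL libraries at days 6 and 8, and all were below them at day 14. The day 8 call held in every alternative. Next in order were ACAT2 and FDFT1, with adjusted p of 0.0819 and 0.083. For the other genes, a call on 1 day and none on another does not show that the days differ. The interaction count was 0 without IND day 14 replicate 3, 2 without IND day 10 replicate 2 and 3 without CTRL day 14 replicate 3.

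Among 33 further genes of lipid metabolism, 2 were lower in IND at day 6 (6.06%), 5 at day 8 (15.2%) and 1 at day 12, and 1 was higher at each of days 10, 12 and 14, beside the shares of all genes given above. Of 3 genes that process SREBPs (SCAP, MBTPS1 and MBTPS2), none passed in IND on any day, and MBTPS1, a protease that cuts SREBPs, was higher in CTRL than at day 4 on all 5 days (0.45 to 0.93). Of 5 liver X receptor genes and targets, ABCA1, which exports cholesterol, passed in IND at day 14 alone (0.58 ± 0.10 (SE, adjusted p = 0.00266)), after a drop in CTRL against day 4 that reached -1.71 at day 14. MYLIP, which degrades lipoprotein receptors, was higher than at day 4 from day 8 on (0.95 to 1.46). Of 7 genes of sterol uptake, transfer and storage, VLDLR, a lipoprotein receptor, was lower in IND at days 6, 8 and 12 (-0.59, -0.92 and -0.58) and higher in CTRL than at day 4 from day 8 on. None of 4 other isoprenoid and sterol enzymes passed in IND, while all 4 (GGPS1, LBR, TMEM97 and ACAT1) were lower than at day 4 at days 10, 12 and 14.

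Of 14 other fatty acid genes, 4 were lower in IND at day 8 (ELOVL1, ELOVL5, ACSL3 and LPIN1, -0.38 for ELOVL5), 1 was lower at day 6 (LPIN1, -0.44), and SCD5, the second desaturase of the SCD kind, was higher at days 10 and 12 (0.98 ± 0.11 (SE, adjusted p = 0.0137) and 0.55 ± 0.12 (SE, adjusted p = 0.0341)). SCD5 also rose in CTRL, from 8.83 CPM at day 4 to 59.4 at day 14 (2.76 ± 0.20 (SE, adjusted p = 6.85e-06)), while SCD fell. ACACB, the mitochondrial counterpart of ACACA, rose too, from 8.47 to 20.8 CPM (1.30 ± 0.15 (SE, adjusted p = 0.000115)). In CTRL against day 4, 4 of the 14 were higher and 6 lower on each of days 8 to 14, the lower ones led by ELOVL5 (-1.24 at day 14) and MID1IP1, an activator of ACACA (-1.12).

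Markers of other cells and of division moved over the same days, and their part in the results above was not tested. Of 5 neuronal markers (STMN2, ELAVL3, ELAVL4, NEUROD1 and DCX), 4 were lower in IND at day 8 and 3 at day 14, with summed levels of 95.9 to 141 CPM in CTRL and 58.2 to 68.2 in IND at day 8 and of 363 to 636 and 279.9 to 343 at day 14, after 12.8 to 58.3 at day 4. All 5 were higher in CTRL than at day 4 at days 12 and 14. Of 4 endothelial markers (PECAM1, CDH5, EMCN and TIE1), 3 were higher in IND at day 8 and 0 passed at day 14, with sums of 34.8 to 52.4 and 73.9 to 88.1 CPM at day 8 and of 11.8 to 30.3 and 24.2 to 36.2 at day 14. Of the 5 early gonadal markers named above, GATA4 was lower in IND on all 5 days (-1.34 at day 8), and 3 were lower at each of days 8 and 14. Their sums in CTRL and IND were 809 to 1124 and 729 to 1054 CPM at day 8. At day 14 they were 716 to 935 and 507 to 576 CPM. These sums overlapped at days 8, 10 and 12 and not at days 6 and 14. None of 5 proliferation genes (MKI67, TOP2A, CCNB1, CDK1 and PCNA) passed in IND on any day, with sums of 1073 to 1143 CPM in CTRL and 1142 to 1175 in IND at day 14. At day 10 the sums were 1287 to 1324 in CTRL and 794 to 1236 in IND, without overlap, and they overlapped on the other days. In CTRL against day 4, the proliferation sum was 1523 to 1617 at day 4, 1579 to 1883 at day 6, 1334 to 1563 at day 8 and 1073 to 1143 at day 14, and PCNA, CCNB1 and CDK1 were lower at days 12 and 14.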

How the data were processed

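Bulk RNA-seq of 33 libraries in 11 groups of 3 was analysed. As the submitters' processing notes and the study's methods give it, reads were trimmed with fastp 0.23.2, mapped to GRCh38 (hg38) with HISAT2 2.0.5 and counted with featureCounts 1.5.0-p3, from non-directional poly-A libraries. The authors deposited raw counts per gene, without normalisation, and FPKM. The deposited FPKM are the counts scaled to gene length and library total, times a constant of each library between 0.943 and 1.12. Genes and positions match GENCODE release 29. The strandedness setting of the counting is not given in the sources used here.

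Counts were filtered with filterByExpr, normalised with TMM and tested with edgeR 4.0.16 in R 4.3.3 (robust quasi-likelihood fit, 6 libraries a comparison, Benjamini-Hochberg adjustment over all genes tested, threshold 0.05). Printed CPM use TMM factors over all 33 libraries. The standard error is the log2 fold change divided by the square root of F. Groups came from the sample titles. The alternatives were DESeq2 1.42.0, RLE or total-count scaling, no filter or a mean of at least 50 counts, a fit over all 33 libraries, limma 3.58.1 on log2(FPKM + 1), a replicate block and each library left out. The code was tested on simulated data. With 3 counts, the lowest level that a library could show was 0.0565 to 0.130 CPM, for counting error only. No 2 libraries of a group agreed within sampling noise.

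The 30 genes and the lists were chosen with earlier results of these data known. Library values are given for the genes with most IND calls and then the largest change, and up to 6 called genes per direction and comparison are named. Genes outside the lists with a like profile, and some genes of the pathway, are not reported here.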

Additional observations from a re-analysis of the deposited data

Results flagged for a closer look

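TM7SF2 was the 1 gene of the 30 whose difference between IND and CTRL depended on the day by a test of the difference itself, the interaction of day and induction over 30 libraries (quasi-likelihood test of edgeR, Benjamini-Hochberg adjusted p = 0.0128), while 2.38% of all genes tested passed. Without IND day 14 replicate 3, none of the 30 passed. Its log2 fold changes were 0.26, 0.63, 0.20, 0.28 and -0.31 on the 5 days in order, with all IND libraries above all CTRL libraries at days 6 and 8 and all below them at day 14. No test for a library far from its group was made, since groups had 3 libraries.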

How the results depend on the processing

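The count of genes called was 1, 9, 0, 0 and 9 in IND at days 6 to 14, 7, 21, 22, 23 and 22 in CTRL against day 4, and 1 in the interaction. Counts that moved by more than 1.5 times are given here. DESeq2 called 4 at IND day 6, 3 at IND day 10 and 3 in the interaction. Without a filter there were 3 at IND day 6 and 5 in the interaction, and with a mean of at least 50 counts 2 in the interaction. The fit over all 33 libraries called 3, 7, 2 and 5 at IND days 8, 10, 12 and 14. Limma on log2(FPKM + 1) called 0 at IND day 6 and 3 in the interaction, and total-count scaling called 14 at DIFF day 14. Leaving out 1 library gave 0 to 2, 4 to 10, 0 to 14, 0 to 3 and 5 to 10 at the IND days, 4 to 15, 15 to 23, 16 to 25, 19 to 25 and 15 to 25 at the DIFF days, and 0 to 3 in the interaction. Of single genes called with or without the library, the direction turned when IND day 10 replicate 2 was left out for MVD and SREBF1 at IND day 10, and when day 4 replicate 3 was left out for PMVK at DIFF day 10 and MVD at DIFF day 12. Over the libraries left out, their log2 fold changes ran from -0.45 to 0.70, from -0.42 to 0.31, from -0.25 to 0.52 and from -0.11 to 0.23. The cause was not tested. At IND day 10, 5 genes with no call in either fit also changed sign without replicate 2.

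The replicate numbers did not pair the samples: over 15 pairs each, the correlation of the deviations of same-numbered libraries lay between -0.107 and 0.0781 for IND with CTRL and between -0.109 and 0.138 for CTRL with day 4. With the replicate block, 2 genes were called at IND day 6, and the other counts stayed within 1.5 times of those without it.

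The libraries are wells of 1 differentiation of 1 clone, so nothing here measures how a second differentiation would vary. Most IND changes were under 1.5-fold, and the calls on every day depend on which libraries enter. Of the IND calls at days 6, 8 and 14, 0 of 1, 3 of 9 and 5 of 9 held whichever single library was left out. At days 10 and 12, genes passed only when a library was left out or in some other settings. No gene was limited by depth, since the lowest count was 121. Levels of CYP51A1 and ACAT2 are limited by exons shared with other genes.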
